A study of Mus musculus with 8 samples.

Results

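The genes described here are 5 forkhead transcription factor genes of ovarian granulosa cells: Foxo1, Foxo3, Foxl2, Foxp1 and Foxp2. They were taken by name out of 21631 protein-coding genes, and every open-chromatin peak that overlapped the gene body or the 50 kb on either side was assigned to the gene. Merged over the 8 libraries, the peak intervals at the 5 genes formed 163 regions of 98245 in the genome: 26 at Foxo1, 24 at Foxo3, 11 at Foxl2, 72 at Foxp1 and 30 at Foxp2. On GRCm38.p6 the genes lie at chr3:52268337-52350109 (Foxo1, plus strand), chr10:42181845-42276695 (Foxo3, minus strand), chr9:98955607-98958126 (Foxl2, plus strand), chr6:98925342-99522746 (Foxp1, minus strand) and chr6:14901349-15441977 (Foxp2).

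The study profiled chromatin by ATAC-seq, in which the Tn5 transposase inserts sequencing adapters where DNA is accessible, in granulosa cells punctured from ovaries of mice aged 21 days. All mice received 5 IU of eCG (PMSG), a gonadotropin that grows follicles, and 46 h later some were killed, while the rest received 5 IU of hCG, which stands in for the surge of luteinizing hormone (LH), and were killed after a further 6 h. In the LH experiment, wildtype CBA x C57BL/6 F1 mice gave 2 PMSG libraries without hCG and 2 hCG libraries. In the second experiment, mice of strain C.129S7(B6)-Pgrtm1Bwo/OmcJ, all given hCG, were either wildtype (WT, 2 libraries) or carried the Pgr null allele, lacking the progesterone receptor in every cell (KO, 2 libraries). Each library pooled 2 to 3 mice. The time tags of the 4 LH libraries run opposite to their titles and source names, and the titles were followed, so every direction between hCG and PMSG rests on those titles.

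Forkhead proteins share a winged-helix DNA-binding domain, and most recognise sequences built on TGTTTA. FOXO1 and FOXO3 sit at the end of the insulin, IGF and FSH pathway: phosphatidylinositol 3-kinase activates AKT, which phosphorylates FOXO proteins and moves them out of the nucleus. FOXO1 is abundant in granulosa cells of growing follicles and is lost as they luteinize, and FOXO3 is best known for holding primordial follicles dormant in the oocyte. FOXL2 keeps granulosa cells from taking on a Sertoli-like identity and represses steroidogenic genes such as Star. FOXP1 and FOXP2 are a separate subfamily of mostly repressive factors that can pair with each other, FOXP2 being known chiefly from brain and lung.

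The promoters of Foxo3 and Foxl2 are printed because the peak over each start site was longer after hCG, and those of Foxp1 start sites 2 and 3 because no library had a peak at the former and all 8 had one at the latter. The 300-base sequences run from 250 bases before to 50 bases after the start, from RefSeq on GRCm38.p6. Capitals mark TGTTTA, the forkhead core, and GGGCGG, the GC box bound by SP factors, on either strand.
Foxo3, chr10:42276646-42276945, minus strand: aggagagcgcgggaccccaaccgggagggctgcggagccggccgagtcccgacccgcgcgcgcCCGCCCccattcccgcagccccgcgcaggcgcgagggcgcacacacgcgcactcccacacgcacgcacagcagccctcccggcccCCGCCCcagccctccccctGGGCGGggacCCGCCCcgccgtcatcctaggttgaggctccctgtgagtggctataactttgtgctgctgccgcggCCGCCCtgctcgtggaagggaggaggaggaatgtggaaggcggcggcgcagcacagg
Foxl2, chr9:98955357-98955656, plus strand: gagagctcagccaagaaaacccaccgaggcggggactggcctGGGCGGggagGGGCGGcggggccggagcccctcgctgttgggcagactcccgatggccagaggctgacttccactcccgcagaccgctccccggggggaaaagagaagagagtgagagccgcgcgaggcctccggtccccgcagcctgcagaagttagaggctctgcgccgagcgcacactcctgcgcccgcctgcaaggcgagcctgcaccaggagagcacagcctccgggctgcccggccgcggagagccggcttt
Foxp1 start site 2, chr6:99266466-99266765, minus strand: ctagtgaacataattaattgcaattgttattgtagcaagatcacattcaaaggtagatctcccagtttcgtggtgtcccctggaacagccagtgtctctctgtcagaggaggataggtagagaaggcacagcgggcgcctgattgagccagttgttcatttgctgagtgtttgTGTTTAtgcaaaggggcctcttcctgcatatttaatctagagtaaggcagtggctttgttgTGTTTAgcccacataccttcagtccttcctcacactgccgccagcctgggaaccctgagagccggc
Foxp1 start site 3, chr6:99028249-99028548, minus strand: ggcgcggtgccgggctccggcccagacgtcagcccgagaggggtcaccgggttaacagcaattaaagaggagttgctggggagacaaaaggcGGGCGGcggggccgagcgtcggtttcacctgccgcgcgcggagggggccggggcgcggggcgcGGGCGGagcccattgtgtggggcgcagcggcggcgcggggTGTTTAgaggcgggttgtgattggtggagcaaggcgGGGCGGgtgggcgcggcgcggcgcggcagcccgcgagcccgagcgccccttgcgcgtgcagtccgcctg
Foxo3 held 5 GGGCGG matches and Foxl2 held 2, against 35.9% of 32585 mouse promoters with at least 1. Foxp1 start site 2 held 2 TGTTTA matches and no GGGCGG, and start site 3 held 1 TGTTTA and 3 GGGCGG matches. TGTTTA was present in 13.4% of promoters. GC content was 75.3% at Foxp1 start site 3 and 48.7% at start site 2, beside a median of 53% over all promoters. Foxo1 (GC 61.3%) held 5 GGGCGG matches, and Foxp1 start site 1 held 1 TGTTTA and 1 GGGCGG match. None of these 6 promoters held TGTTTAC, the longer forkhead site that contains TGTTTA (3.67% of promoters), the cyclic AMP response element TGACGTCA (1.80%) or the RUNX site TGTGGT (16.6%). The promoter table had no entry for Foxp2.

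Each library was deposited as its own list of peaks, with 55654 to 84313 intervals on chromosomes 1 to 19 and X, and no read counts, so the sequencing depth is unknown. The WT lists (80137 and 84313 intervals) were longer than the KO lists (58851 and 55654), and the hCG lists (65567 and 62327) longer than the PMSG lists (57992 and 58780). Counts in lists of unequal length are therefore given again after each list of an experiment was cut to the shortest (57992 intervals in the LH and 55654 in the Pgr experiment) by fold enrichment, the authors' column 7. The 5 genes took 0.148 to 0.171% of a library's intervals. Of 8 granulosa marker genes, 5 to 7 had a peak at the start site, or at a gene end where the table held no start site, in each library, and of 6 theca markers 3 in each hCG library, 0 and 1 in the PMSG, 4 and 3 in the WT and 2 and 2 in the KO libraries. The 3 in the hCG libraries were Star, Ptch1 and Enpep, and Star is also counted below among the targets of FOXL2. Endothelial markers had 2 of 6, leukocyte markers 1 to 2 of 6, stromal and muscle markers 2 to 4 of 7 and oocyte markers 1 of 6; the part of other cells in the results below was not tested. The Pgr start-site interval covered 2301 and 2206 bp in the WT and 1277 and 1270 bp in the KO libraries, with overlapping folds of 5.35 and 6.00 in WT and 5.46 and 7.44 in KO. In the LH experiment it covered 2281 bp in hCG replicate 2, and hCG replicate 1 and both PMSG libraries had no peak there, so the hCG libraries differed from each other at this gene. In bulk chromatin, a region open in fewer cells and a region less open in every cell cannot be told apart.

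All 5 genes had a peak at an annotated start site or, for Foxp2, at the lower-coordinate gene end, in all 8 libraries. The start-site intervals of Foxl2 and Foxo3 were longer in all 6 post-hCG libraries than in both PMSG libraries, and those of Foxp2 were not. At Foxo1 the region covered 1660 and 1696 bp in the hCG libraries, 1293 and 1071 bp in the PMSG libraries, 1797 and 1679 bp in the WT and 1615 and 1530 bp in the KO libraries. Every post-hCG library thus covered more bases than either PMSG library, 1.42 times as many in the hCG as in the PMSG libraries on average. The extra length lay inside the gene, since the interval reached 952 to 976 bp downstream of the start in the hCG libraries and 440 to 442 bp in the PMSG libraries.

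At Foxo3 the PMSG lists held 2 separate intervals: one over the start site, of 669 and 695 bp, and one with its summit at -1133 and -1147 bp, upstream of the start, at a fold enrichment of 9.32 and 9.31. The 6 post-hCG libraries each held a single joined interval across both. Covered length was 2825 and 2906 bp in the hCG libraries against 1688 and 1739 bp in the PMSG libraries, a ratio of 1.67, and 3152 and 3183 bp (WT) and 3210 and 2980 bp (KO) after hCG in the Pgr strain. The joined intervals reached 1059 to 1444 bp into the gene, against 291 to 317 bp in the PMSG libraries. The upstream summit was the highest point in all 8 libraries, at 6.88 and 6.97 in the hCG, 7.11 and 8.94 in the WT and 6.30 and 8.97 in the KO libraries.

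At Foxl2, a gene with a single exon, the interval measured 2728 and 2809 bp in the hCG and 1395 and 1386 bp in the PMSG libraries, a ratio of 1.99. It measured 2695 and 2791 bp in the WT and 2816 and 2726 bp in the KO libraries, in lists that may have been processed differently. The upstream edge was nearly shared by all 8 libraries (927 to 1051 bp before the start), and the downstream edge lay 427 to 458 bp after the start in the PMSG libraries and 1674 to 1853 bp after it in the other 6. The same interval covered the start of Foxl2os, its antisense non-coding partner, and accessibility of the pair cannot be told apart. Fold did not rise with length: the best fold enrichment was 4.37 and 4.43 in the hCG, 6.74 and 7.33 in the PMSG, 5.67 and 6.02 in the WT and 4.68 and 6.88 in the KO libraries. Within the LH experiment the hCG folds were below the PMSG folds.

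**Figure D1:**
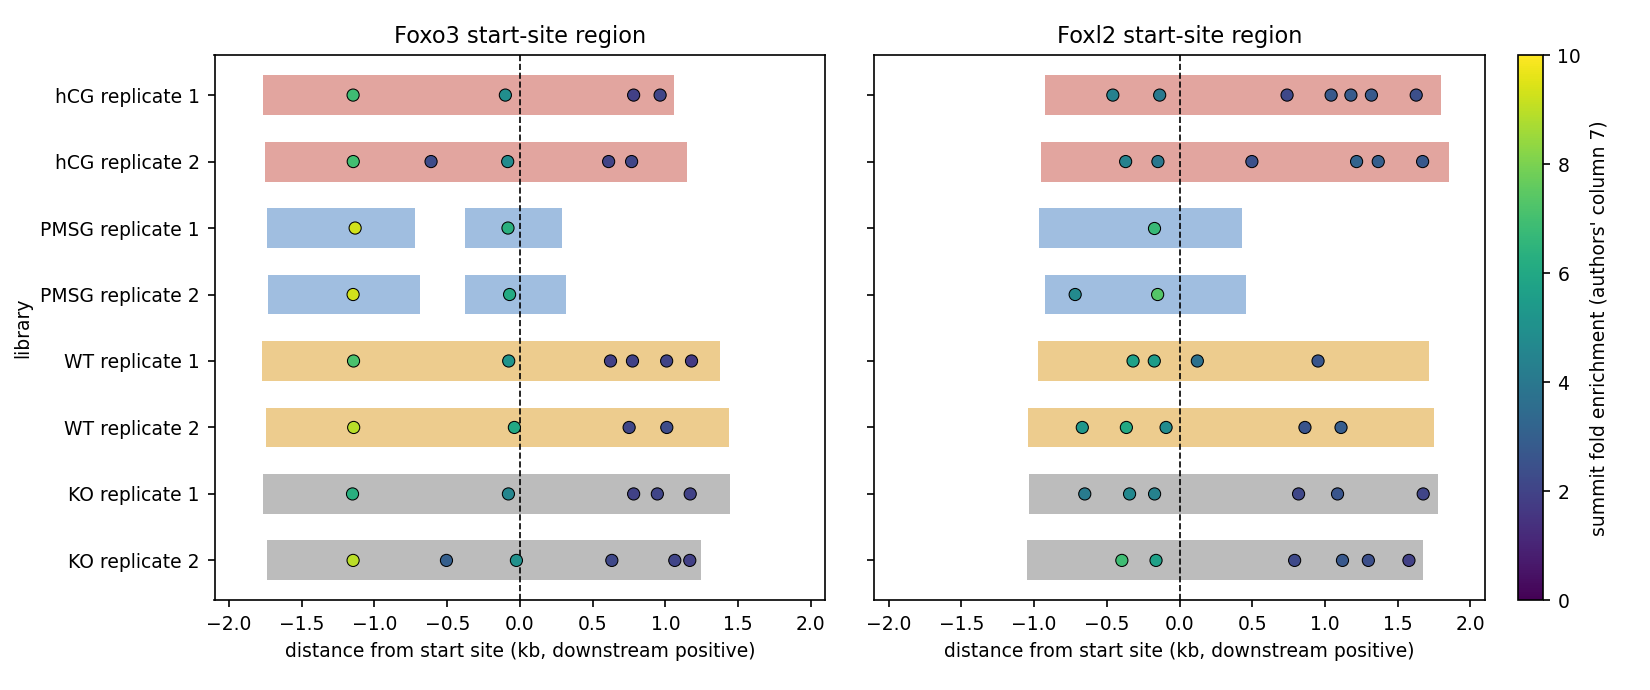
Peak intervals (bars, coloured by group) and summits (points, coloured by the authors' fold enrichment, scale 0 to 10) at the Foxo3 and Foxl2 start sites, 1 row per library, against distance from the start in kb with downstream positive. The PMSG bars are split at Foxo3 and end 427 to 458 bp downstream of the start at Foxl2, while the bars of the 6 post-hCG libraries run on into each gene.

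The added stretches carried low summits. In the hCG libraries the summits more than 400 bp downstream of the Foxl2 start had folds of 2.16 to 3.20, and those of Foxo3 had 1.88 to 2.07. Summits with a fold under 3 were 4.19% and 3.52% of all summits in the hCG lists, 2.15% and 2.06% in the PMSG lists, 6.12% and 5.92% in the WT lists and 4.89% and 3.09% in the KO lists. The PMSG lists thus held the fewest such summits genome-wide, and their part in the lengths was not tested. Median interval length was 488 and 502 bp in the hCG and 422 and 412 bp in the PMSG libraries.

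A length difference was counted where all 4 libraries of an experiment held a region, the groups did not overlap and the mean covered length differed at least 1.5 times, a rule set after the lengths had been seen. Among 10916 start-site regions held by all 4 LH libraries, 10.6% were longer by this rule in hCG and 0.376% in PMSG. The median ratio was 1.16, and the central 90% ran from 0.972 to 1.72. Foxo1, which did not pass the rule, and Foxo3 lay inside this range, and Foxl2 lay above it. The share of start-site regions at which every post-hCG library covered more bases than either PMSG library was not counted. Between WT and KO, no start-site region of the 5 genes passed the rule, beside 1.75% longer in WT and 0.289% longer in KO.

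Foxp1 has 3 annotated start sites within a 597 kb gene. Site 3, which begins the shorter transcripts, was covered by 1384 and 1394 bp in the hCG, 1171 and 1216 bp in the PMSG, 1396 and 1375 bp in the WT and 1290 and 1212 bp in the KO libraries, and the PMSG values were below the hCG values. Site 1, at the far end of the gene, was split into 2 or 3 intervals in 6 libraries. In both KO libraries it was 1 joined interval, of 3035 and 2953 bp. The lower-coordinate end of Foxp2 was covered by 1928 and 1916 bp in the hCG and 2072 and 1896 bp in the PMSG libraries, which overlapped. The higher-coordinate end had no peak in any library.

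**Figure D2:**
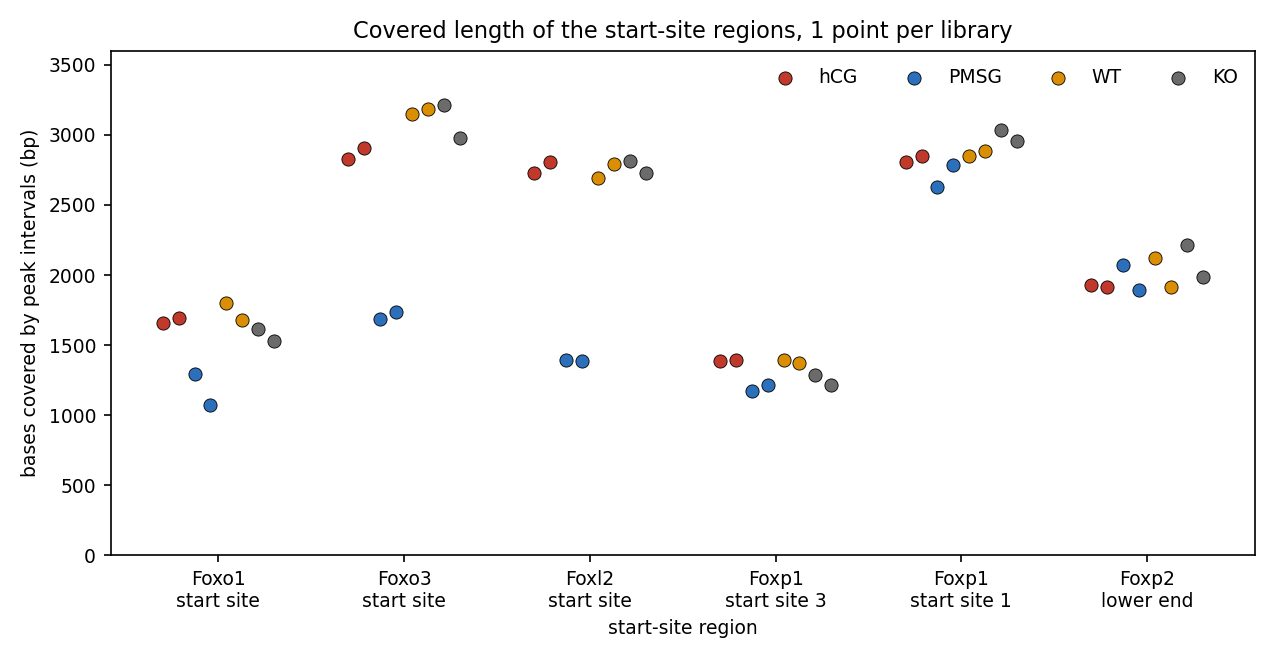
Bases covered by peak intervals in each start-site region, 1 point per library, in bp. The PMSG points sit apart from and below the other 6 at Foxo1, Foxo3 and Foxl2, by 1.99 times for the hCG libraries at Foxl2, and among them at the Foxp2 gene end.

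In the deposited LH lists, hCG-only regions outnumbered PMSG-only regions at 4 of the 5 genes, and Foxp2 went the other way. Of 139 regions in the LH libraries, 32 (23.0%) were hCG-only, meaning present in the hCG pair and absent from the PMSG pair, beside 17.7% of all 81943 regions. PMSG-only regions numbered 15 (10.8%), beside 10.4% of all, and either class took 28% of all regions. Regions held by all 4 libraries numbered 58 at the 5 genes, beside 49.9% of all. Foxp1 supplied 17 of the hCG-only and 1 of the PMSG-only regions, and Foxp2 supplied 1 and 6. Libraries held 107 and 105 regions in the hCG group and 86 and 85 in the PMSG group, a difference of 20.5 (two-sided exact permutation test, p = 0.333, which is the lowest value open to 2 against 2 libraries). In lists of equal length they held 76 and 84 against 86 and 80, a difference of -3 (exact permutation p = 0.667), with 22 hCG-only and 23 PMSG-only regions of 122, beside 15.4% and 13.3% of all (28.7% in either class), and 46 regions held by all 4, beside 48.5% of all. When the lists were cut by q instead of fold, the difference was 11 (exact permutation p = 0.333), with 26 hCG-only and 17 PMSG-only regions, so the sign depended on the measure used for the cut.

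**Figure D3:**
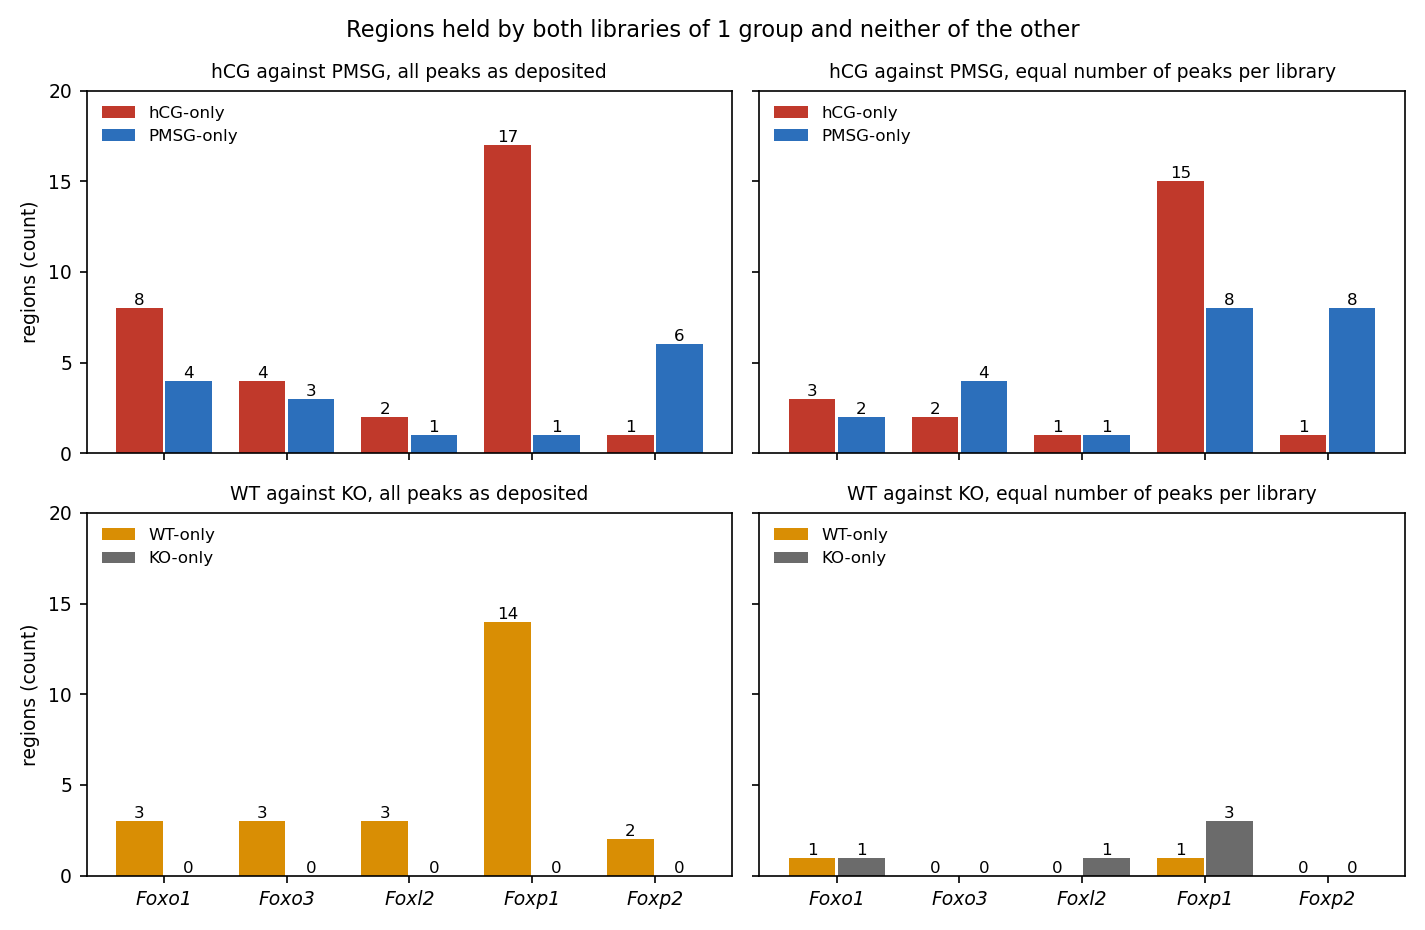
Number of regions held by both libraries of 1 group and neither of the other at each gene, for the LH experiment (top) and the Pgr experiment (bottom), with the lists as deposited (left) and cut to equal length (right). Foxp1 has 17 hCG-only and 1 PMSG-only regions and Foxp2 has 1 and 6; the 25 WT-only regions become 2 in lists of equal length.

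Foxo1 held 16 and 15 regions in the hCG and 9 and 10 in the PMSG libraries, with 8 hCG-only and 4 PMSG-only of 22. In lists of equal length these were 3 and 2 of 13, and libraries held 8 and 9 against 9 and 7. The median region of Foxo1 ranked low: the median rank percentile, the share of a library's own intervals with a fold at or below it, was 1.92 to 19.7 over the 8 libraries, and no interval reached the top 10% in any library. The best hCG-only region, chr3:52369198-52369528 in the downstream flank, had folds of 9.69 and 10.5 and was held by all 4 libraries of the Pgr experiment. A second, chr3:52246389-52246700 at -21.8 kb (negative distances are upstream of the start site), had folds of 6.85 and 5.14 and was held by both WT and 1 KO library. The PMSG-only regions were weak: the best, chr3:52327433-52327918 in the gene body, had folds of 3.61 and 3.52.

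Rank was compared only in lists of equal length, where a region held by all 4 libraries was called when both libraries of a group ranked it above both of the other and the means differed by 10 points. Over the 5 genes, 14 of 46 regions ranked higher in hCG (20.9% of all regions) and 17 in PMSG (32.9% of all). The Foxo1 start site ranked at 40.4 and 26.6 in hCG and 62.5 and 58.1 in PMSG. A region at -25.7 kb ranked at 43.8 and 49.6 in hCG and 61.9 and 66.2 in PMSG. Both were higher in PMSG by the rule, and 1 region in the gene body at 5.95 kb was higher in hCG, at 21.7 and 10.4 against 4.08 and 2.94.

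Foxo3 held 19 and 17 regions in the hCG and 15 and 16 in the PMSG libraries, with 4 hCG-only and 3 PMSG-only of 23, and 2 and 4 of 21 in lists of equal length. Of its 11 regions held by all 4 libraries, 5 were longer in hCG and none in PMSG. Over the 5 genes 13 of 58 (22.4%) were longer in hCG, beside 20.7% of all regions, and 4 in PMSG, beside 3.41% of all. The largest of these ratios was at chr10:42293519-42294534, -17.3 kb, which covered 1003 and 972 bp in hCG and 169 and 248 bp in PMSG, 4.74 times as many. Its folds were 11.2 and 11.7 in hCG against 7.68 and 7.02 in PMSG, and it ranked 40.01 points higher in lists of equal length, so presence alone, which was the same in all 8 libraries, would not show it. A region at -36.2 kb went the other way, with folds of 7.55 and 6.59 in hCG and 11.5 and 10.5 in PMSG and a rank difference, hCG minus PMSG, of -32.3; it overlaps the end of Afg1l, the neighbouring gene.

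The best hCG-only region of Foxo3, chr10:42167517-42168219 in the downstream flank, had folds of 8.10 and 9.95 and was held by both WT and 1 KO library. At -22.9 kb an hCG-only region (folds 6.61 and 6.32) lay 393 bp from a PMSG-only region at -23.6 kb (folds 8.67 and 7.02). The same arrangement stood upstream of Foxl2, where an hCG-only region at -23.6 kb (folds 7.82 and 8.60) lay 496 bp from a PMSG-only region at -24.4 kb (folds 5.78 and 5.78). Another pair, in the Foxo1 gene body, was 599 bp apart. So 3 of the 32 hCG-only regions had a PMSG-only region within 1 kb, beside 1.67% of all hCG-only regions; the pairs were noticed after the values were seen.

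Foxl2 held 9 and 10 regions in the hCG and 7 and 8 in the PMSG libraries, with 2 hCG-only and 1 PMSG-only of 11, and 1 and 1 of 9 in lists of equal length. Its flanks, not its start site, held the strongest peaks. The best region, chr9:98985939-98987026, covers the start of Faim, an apoptosis inhibitor gene downstream, with folds of 15.6 to 21.4 over the 8 libraries. A region at 24.1 kb had folds of 12.4 and 12.8 in hCG and 17.3 and 18.9 in PMSG, with a rank difference of -15.1. A region at -11.1 kb ranked 34.2 points higher in hCG, with folds of 9.64 and 10.3 against 6.65 and 6.83. The weakest, an hCG-only region at -3.05 kb with folds of 2.03 and 2.22, was also held by all 4 libraries of the Pgr experiment.

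Foxp1 had the highest number of hCG-only regions, in the longest gene. In the deposited lists their share was higher at Foxo1 (36.4%). In lists of equal length the share was 23.1% at Foxo1 and 27.3% at Foxp1, so the order turned. At Foxp1 the libraries held 51 and 50 regions in hCG and 34 and 32 in PMSG, with 17 hCG-only of 59 (28.8%) and 1 PMSG-only (1.69%). With the lists cut to equal length it had 15 hCG-only and 8 PMSG-only of 55, and libraries held 39 and 42 against 34 and 32, so the hCG values stayed above the PMSG values. Of the 17 regions, 16 lay inside the gene. The best were chr6:99123991-99124451, with folds of 13.8 and 14.7, and chr6:99199127-99199806, with folds of 14.3 and 13.3; these stood at rank percentiles of 84.8 to 91.5 in the hCG lists and were held by all 4 libraries of the Pgr experiment. The single PMSG-only region, chr6:99432087-99432531, had folds of 4.92 and 5.23. Without PMSG replicate 2, a looser condition, Foxp1 had 4 PMSG-only regions.

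Some Foxp1 regions held by all 4 LH libraries also ranked differently. Those higher in hCG included chr6:99485075-99486144 (folds 12.84 and 15.04 against 11.99 and 13.15, 15.3 points) and chr6:99446666-99447527 (14.6 and 13.4 against 10.6 and 10.5, 28.8 points). At the first of these the folds of the groups overlapped, and only the rank separated the groups. Those higher in PMSG included start site 3 (8.35 and 8.86 against 11.2 and 11.3, a difference of -17.7) and chr6:99101426-99101957 (6.84 and 7.23 against 11.5 and 13.8). Among 19 such regions, 6 (31.6%) ranked higher in hCG and 7 (36.8%) in PMSG, beside the 20.9% and 32.9% of all regions given above.

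In the deposited lists Foxp2 was the only one of the 5 genes with more PMSG-only than hCG-only regions; in lists of equal length Foxo3 was as well. It held 12 and 13 regions in hCG and 21 and 19 in PMSG, with 1 hCG-only (4.17%) and 6 PMSG-only (25%) of 24, and 1 and 8 (33.3%) of 24 in lists of equal length. The best PMSG-only region, chr6:15148137-15148542 in the gene body, had folds of 15.8 and 17.0, at rank percentiles of 88.04 and 91.08. The next, chr6:15197230-15197546, had folds of 9.70 and 9.19. A region at chr6:15281968-15282753 was held by all 4 libraries but had a rank difference, hCG minus PMSG, of -59.6, with folds of 5.18 and 6.32 against 13.02 and 12.54 and covered lengths of 172 and 219 bp against 786 and 409 bp. The only hCG-only region of the gene, chr6:15281086-15281538, with folds of 8.61 and 7.38, lay next to it. Without PMSG replicate 2, Foxp2 had 2 hCG-only and 10 PMSG-only regions. With only peaks at a -log10 q of 20 or more, it had 2 and 3, so the contrast at Foxp2 narrowed to a difference of 1 region.

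**Figure D4:**
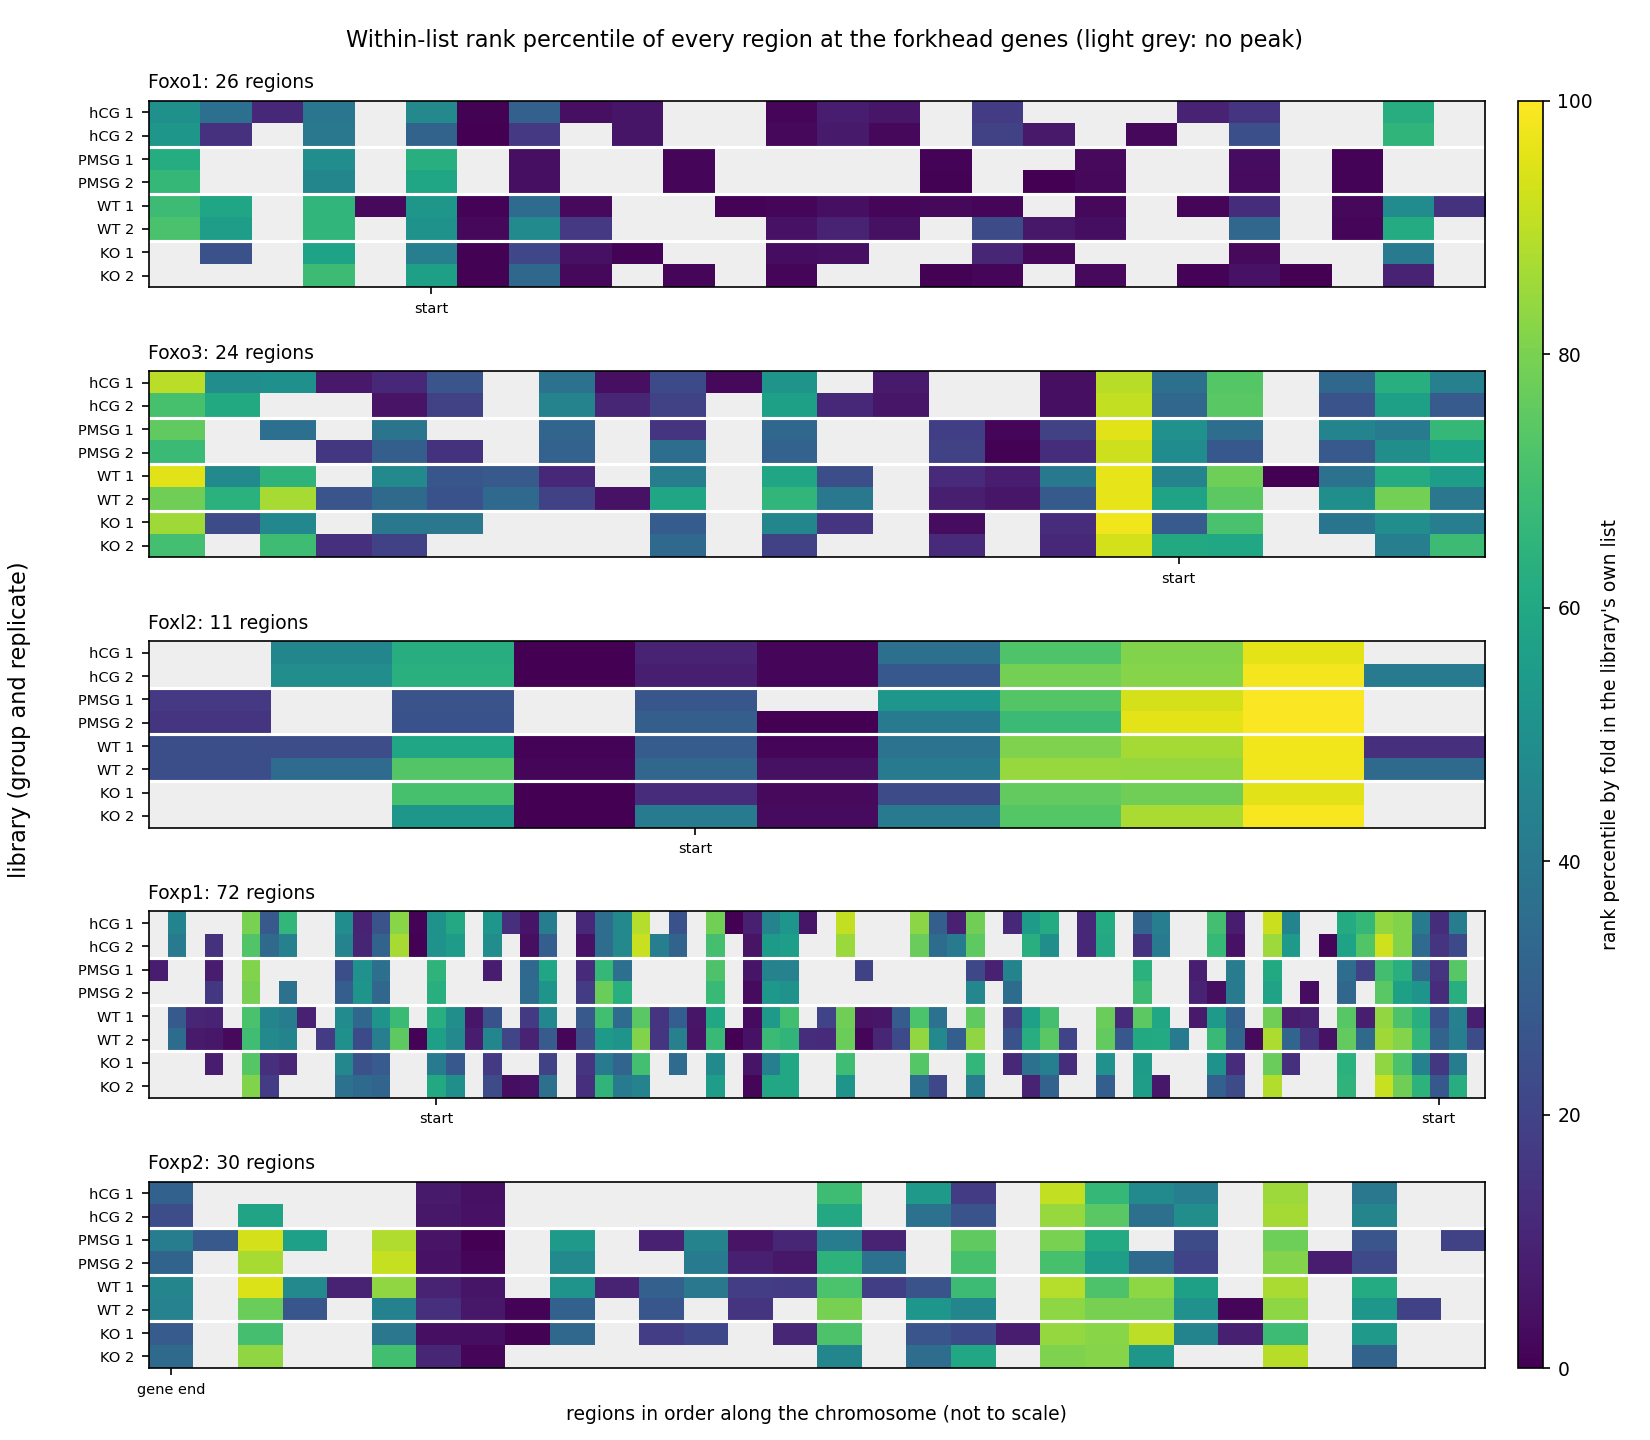
Rank percentile of every region at the 5 genes by fold within each library's own list (0 to 100), 1 row per library and 1 column per region in chromosome order, with light grey where a library had no peak. Foxp1 shows columns filled in the hCG rows and empty in the PMSG rows, Foxp2 the reverse, and the Foxo1 panel is mostly dark, where regions rank low; percentiles from lists of different length are not compared.

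The PMSG-only regions were not absent from the Pgr experiment, where all mice had received hCG. All 6 at Foxp2 were held by WT replicate 1, 3 by WT replicate 2, 4 by KO replicate 1 and 1 by KO replicate 2, and chr6:15148137-15148542 was held by all 4. Over the 5 genes, each of the 15 PMSG-only regions was held by at least 1 of these libraries, beside 19.4% of all PMSG-only regions held by none. No region of the 163 was held by both PMSG libraries alone, beside 1.68% of all regions. Strain and experiment differ together between the sets, so their parts cannot be told apart.

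Of the 32 hCG-only regions, 26 and 29 were held by the WT libraries and 21 and 16 by the KO libraries, and 14 by all 4. The shares, 81.2%, 90.6%, 65.6% and 50%, were near those of all hCG-only regions, at 79.9% and 91.3% in the WT and 63.4% and 44.7% in the KO libraries. In total 14 of 163 regions (8.59%) were held by all 6 post-hCG libraries and neither PMSG library, beside 5.88% of all, of which 8 were at Foxp1, 4 at Foxo1, 1 at Foxl2 and 1 at Foxp2. Regions held by all 8 libraries were 52 of 163 (31.9%), beside 37.9% of all: 4 at Foxo1, 10 at Foxo3, 6 at Foxl2, 23 at Foxp1 and 9 at Foxp2. The best of these away from a start site at Foxo3, chr10:42260291-42261236 in the gene body, had folds of 14.0 to 18.4.

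Between WT and KO cells after hCG, the 5 genes had a surplus of WT regions in the deposited lists and none in lists of equal length. Of 153 regions, 25 (16.3%) were WT-only, beside 12.1% of all 91502 regions, and none were KO-only, beside 0.0842% (12.2% in either class); 75 were held by all 4 libraries, beside 53.3% of all. The WT-only regions numbered 3 at Foxo1, 3 at Foxo3, 3 at Foxl2, 14 at Foxp1 and 2 at Foxp2. Leaving out 1 library raised these to as many as 6 at Foxo1 (without WT replicate 2), 7 at Foxo3 (without KO replicate 1) and 5 at Foxp2 (without WT replicate 2). Libraries held 131 and 136 regions in WT and 97 and 85 in KO, a difference of 42.5 (exact permutation test, p = 0.333). Without KO replicate 1 the WT-only count was 39, and without WT replicate 1 that of Foxp1 alone was 24. In lists of equal length they held 72 and 74 against 84 and 86, a difference of -12 (exact permutation p = 0.333), with 2 WT-only and 5 KO-only regions of 113, beside 4.24% and 4.16% of all (8.4% in either class); 55 were held by all 4, beside 56.2% of all.

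The 2 WT-only regions in lists of equal length were at Foxo1 and Foxp1. At Foxo1, chr3:52242577-52242762, the -25.7 kb region, had folds of 10.3 and 11.2 in WT, no peak in either KO library, and folds of 8.25 to 11.8 in the 4 LH libraries, so it was open before as well as after hCG in the F1 mice. At Foxp1, chr6:99019407-99019736, 8.73 kb downstream of start site 3, had folds of 10.2 and 12.1 in WT and no peak in KO or PMSG. It belonged to the hCG-only regions, with folds of 12.6 and 13.7 in the hCG libraries. Upstream of Foxl2, both regions of the pair near -24 kb were held by both WT libraries and neither KO library, at folds of 5.20 and 6.18 for the hCG-only one. The Foxl2 start site itself was KO-only in lists of equal length, because its WT folds of 5.67 and 6.02 fell below the WT cut; the deposited WT lists held it in both libraries.

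Of the hCG-only regions of the 5 genes that all 4 WT and KO libraries held, 5 of 14 were longer in WT and none in KO, and in lists of equal length 3 of 9 ranked higher in WT and none in KO. By gene, the length counts were 1 of 4 at Foxo1, 0 of 1 at Foxl2, 0 of 1 at Foxp2 and 4 of 8 at Foxp1, which is described further after these counts were seen. Of 8 such Foxp1 regions held by all 4 libraries, 4 covered at least 1.5 times more bases in WT and none in KO, beside 13% and 1.4% of 6013 regions that overlap an hCG-only region. In lists of equal length 3 of 8 ranked higher in WT and none in KO, beside 17.3% and 7.96% of 4559. The best of them, chr6:99123991-99124451, covered 353 and 430 bp in WT and 199 and 170 bp in KO. The region chr6:99327753-99328357, singled out after its values were seen, covered 439 and 551 bp in WT and 272 and 214 bp in KO, with folds of 10.6 and 11.9 against 7.70 and 6.08 and a rank difference of 23.6 points. Over all regions held by the 4 deposited lists, 7.34% were longer in WT and 1.31% in KO, so the general lean was also to WT. Median interval lengths over whole lists, which differ in number of intervals, were 425 and 394 bp in WT and 552 and 456 bp in KO. The WT and KO libraries took no part in choosing the 8 regions as hCG-only.

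Over all regions held by the 4 libraries in lists of equal length, 4 of 55 at the 5 genes ranked higher in WT (6.98% of all) and 10 in KO (12.9% of all). With the lists cut by q the balance turned, to 8 in WT and 2 in KO. All 4 in WT were at Foxp1, among them chr6:99259799-99260234, with folds of 11.5 and 13.9 against 10.3 and 6.95. The 10 in KO included the Foxo1 start site, with folds of 8.008 and 7.997 in WT and 7.68 and 8.46 in KO. They also included a Foxo3 region at -36.1 kb, with folds of 8.41 and 6.65 in WT and 7.67 and 10.02 in KO. At both regions the folds of the groups overlapped, so the rank differed while the fold did not separate the groups. By length, 8 of the 75 regions held by all 4 deposited lists (10.7%) were longer in WT (7.34% of all), 5 of them at Foxp1 and 3 at Foxo1, and 1 at Foxp2 was longer in KO (1.31% of all). Without KO replicate 1, 14 regions ranked higher in WT, 23 in KO, and 18 were longer in WT; without KO replicate 2, 7 were longer in KO.

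Genes around the forkhead factors were counted in the same way. Of 16 genes that act upstream of FOXO (receptors, phosphatidylinositol 3-kinase, AKT, 14-3-3), 237 LH regions included 37 hCG-only and 24 PMSG-only. Ywhaz, a 14-3-3 protein that holds phosphorylated FOXO in the cytoplasm, had 8 and 2, and Fshr, the FSH receptor, had 1 and 4. Of 18 FOXO target genes, 157 regions included 21 and 11, with 4 and 0 at Hmgcs1 (sterol synthesis). Of 16 targets and partners of FOXL2, 281 regions included 52 and 32, with 8 and 0 at Smad3 (a signal carrier of activin), 7 and 3 at Amh and 5 and 6 at Esr2, which encodes oestrogen receptor beta. The other 39 Fox genes had 40 and 16 of 294. In all protein-coding genes 15.2% of assigned regions were hCG-only and 7.50% PMSG-only.

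Counted by gene in the deposited lists, those with more hCG-only than PMSG-only regions and those with fewer numbered 8 and 4 among the upstream genes, 8 and 3 among the FOXO targets, 9 and 5 in the FOXL2 list and 18 and 4 among the other Fox genes, beside 41.6% and 15.1% of all genes. Once the lists were cut to equal length, the numbers were 4 against 10 among the upstream genes, 7 against 5 among the FOXO targets, 3 against 12 in the FOXL2 list and 12 against 9 among the other Fox genes, beside 30.0% and 24.4% of all genes. In regions, hCG-only and PMSG-only then numbered 29 and 38 of 216 at the upstream genes, 19 and 16 of 152 at the FOXO targets, 28 and 49 of 252 in the FOXL2 list and 35 and 30 of 282 at the other Fox genes, beside 12.5% and 10.9% over all genes. The granulosa markers had 11 and 26 of 118 (9.32% and 22.0%), so the lean to PMSG was not particular to the FOXL2 list. The markers share Cyp19a1, Amh, Inha, Inhba and Nr5a2 with the FOXL2 list and Fshr and Kitl with the upstream genes. By region, Hmgcs1 then had 4 hCG-only and 0 PMSG-only, Fshr 1 and 4, Ywhaz 4 and 2, Smad3 4 and 2, Amh 2 and 3 and Esr2 3 and 7. Between WT and KO in the deposited lists, 42 of 270 regions at the upstream genes, 14 of 170 at the FOXO targets and 27 of 315 in the FOXL2 list were WT-only, beside 11.4% over all genes. Cut to equal length, WT-only and KO-only regions numbered 7 and 21 of 215 at the upstream genes (3.26% and 9.77%), 5 and 5 of 141 at the FOXO targets (3.55% each) and 4 and 20 of 237 in the FOXL2 list (1.69% and 8.44%), beside 3.73% and 4.36% over all protein-coding genes. The granulosa markers had 3 and 13 of 130 (2.31% and 10%). For these lists of genes the cut to equal length was made by fold only.

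The genes whose covered bases, as a share of all bases the library covers, were most alike over the 8 libraries were found for each member among 15364 to 15370 genes. They were Pdhb and Foxf2 for Foxo1 (Pearson r = 0.983 and 0.972), Septin11 and Ogfod2 for Foxo3 (0.994 and 0.988) and Lsg1 for Foxl2 (0.979). For Foxp1 they were Zfyve21 and Pcnx2 (0.991 and 0.991), and for Foxp2 Fcsk and Amn1 (0.978 and 0.974). These are the highest of very many correlations over 8 points that fall into 4 groups, and all points share list length and group, so they are descriptions. By this share Foxp2 was 395 and 365 bp per Mb covered in PMSG, 234 and 248 in hCG, 290 and 259 in WT and 350 and 292 in KO, and the PMSG values were above all others. Foxp1 was 652 and 651 in PMSG, 767 and 787 in hCG, 755 and 798 in WT and 706 and 726 in KO, and the PMSG values were below all others. The same order held at Foxo1 (150 and 151 in PMSG, 173 to 227 in the other 6), Foxo3 (223 and 244, against 291 to 308) and Foxl2 (152 and 170, against 188 to 230), so Foxp2 was the exception among the 5 genes. How many of all genes have either order was not counted, so neither order can be called particular to these genes.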

How the data were processed

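ATAC-seq was measured in 8 libraries, each with its own peak list, on mm10 (GRCm38); Bowtie2 and MACS2 are named in the submitters' processing notes, without version or role. In each deposited list, column 7 is used as the authors' fold enrichment at the summit (a ratio), column 9 as their -log10 q (at least 10 in every list), and column 5, their integer score, was not used. Peak names in the WT and KO lists carry a filtering prefix that those of the LH lists lack, so the authors' processing may have differed, so values of the experiments are set side by side as descriptions and were not tested against each other.

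Summits that shared an interval were collapsed, and intervals on chromosomes 1 to 19 and X that shared at least 1 bp were merged into regions with Python 3.11.15, pandas 2.3.3 and numpy 2.4.6. Tests were exact permutations of 2 against 2 libraries (scipy 1.17.1). The named regions of a gene were the 2 best by mean rank in each class of call, and others are said to have been chosen after their values were seen. The members and lists were chosen with earlier results of these data known. The merging and calling steps were tested on simulated data. Gene positions and promoters came from RefSeq tables. Depth is unknown, and intervals for counting error could not be given. Alternatives were lists of equal length by column 7 or 9, a stricter q, the top 20000 peaks, no flank, peaks covering 50% of a region, leaving out each library, and a replicate block. The length rule of 1.5 times and its alternatives were added after seeing the data. Some genes that the naming rule selects are not reported here.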

Additional observations from a re-analysis of the deposited data

How the results depend on the processing

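In lists of equal length by fold, the difference in regions held turned to -3 (hCG minus PMSG) and -12 (WT minus KO), with 23 PMSG-only, 2 WT-only and 5 KO-only regions. Equal length by q kept the hCG minus PMSG difference positive, at 11 with 26 hCG-only and 17 PMSG-only regions, and gave a WT minus KO difference of -3, 3 WT-only and 2 KO-only regions, 8 ranking higher in WT and 2 in KO, and 2 longer in PMSG. At -log10 q of 20 or more there were 9 PMSG-only and 16 WT-only regions, and 6 ranked higher in KO. The top 20000 peaks gave 8 hCG-only and 4 PMSG-only regions with 3 and 3 ranking higher in hCG and PMSG, and 0 WT-only and 1 KO-only with 0 and 1 ranking higher in WT and KO, the difference being -2.5. Without flanks, 11 ranked higher in PMSG and 6 in KO; with peaks covering 50% of a region, 2 ranked higher in WT. At a length ratio of 2, chosen after seeing the data, 6 were longer in hCG, 1 in PMSG, 3 in WT and 0 in KO.

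Leaving out 1 library gave 34 to 39 hCG-only and 16 to 22 PMSG-only regions and a difference of 19.5 to 21.5; 13 to 17 ranked higher in hCG and 15 to 19 in PMSG, and 13 to 18 were longer in hCG and 3 to 6 in PMSG. It gave 29 to 39 WT-only and 0 to 2 KO-only regions and a difference of 36.5 to 49; 7 to 14 ranked higher in WT and 13 to 23 in KO, and 9 to 18 were longer in WT and 1 to 7 in KO. With 1 library in a group the conditions are easier to meet. With the replicate number as a paired block, the differences were 20.5 and 42.5 (exact sign-flip permutation p = 0.5 for both, the lowest possible); deviations of same-numbered libraries correlated at 0.0361 over 38263 LH regions and -0.0466 over 40601 Pgr regions, so the block rests on numbers alone. The other 89 values for the 5 genes together kept their direction or stayed within 1.5 times. Of the counts for single genes, which are small, 70 moved by more than 1.5 times and 150 did not; the causes of the changes were not tested.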
